A study of Homo sapiens with 23 samples.

Results

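H3K9me3 was compared between parental NCCITs and SCi-NCCITs that had received no doxycycline. Members were chosen by antibody and condition in the labels, which left 3 of the 23 samples of the series and 3 of its 5 H3K9me3 ChIP-seq peak lists. NCCIT is a human embryonal carcinoma line that serves as a model of pluripotent cells, and the parental cells had neither dCas9-KRAB nor sgRNAs. SCi-NCCITs are NCCITs in which a piggyBac transposon carries a doxycycline-inducible dCas9-KRAB and a puromycin resistance gene, and a further piggyBac transposon expresses 2 sgRNAs against SVAs at all times together with a geneticin resistance gene. Stable clones were isolated, the cells were kept in puromycin, geneticin and tetracycline-free serum, and the labels do not say whether the 2 uninduced libraries came from 1 clone or from separate cultures. The parental sample carries no drug selection in its label, so cell line, selection and library cannot be told apart where NCCIT has 1 library. The 2 H3K9me3 libraries of SCi-NCCITs treated with 2 µg/mL doxycycline for 72 hours are given as a reference only. The comparison addresses how much H3K9me3 the engineered cells carried at guide targets before induction, and how far the peak lists of parental and engineered cells differed elsewhere.

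H3K9me3 is the histone mark of constitutive heterochromatin. It is written by SETDB1 and the SUV39H enzymes and is read by HP1 proteins. KRAB zinc finger proteins bind transposable elements and recruit TRIM28, which brings SETDB1, and dCas9-KRAB borrows this route by tethering a KRAB domain to a guide target. SVAs are hominoid composite retrotransposons with a CT-rich hexamer repeat, an Alu-like region, a GC-rich tandem repeat and a SINE-R region, and in pluripotent cells most of them are held under H3K9me3. Genes of the zinc finger clusters of chromosome 19 and the clustered protocadherins are among the protein-coding genes known to carry the mark.

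The 2 guides differ in how often they match the genome. sgRNA1 had 2011 exact matches beside an NGG PAM and 479 with 1 mismatch, whereas sgRNA2 had 532 exact matches and 1823 with 1 mismatch. At SVA_D_r148 and SVA_D_r153, which hold an exact sgRNA1 match, no peak lay on the match in NCCIT or in either uninduced library, and both doxycycline libraries had one there. At SVA_E_r223, whose sgRNA1 match has 1 mismatch, no library of the 5 had a peak on the match. At SVA_F_r742 uninduced library 2 and both doxycycline libraries had one, and NCCIT and uninduced library 1 did not.

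The 3 peak lists differed in number and width, and uninduced library 1 stood apart from the other two at guide matches and in GC-rich sequence. Its fold enrichment at guide matches was closer to that of doxycycline library 1 than to that of uninduced library 2. At the listed SVAs its peaks covered the guide match far less often than those of either doxycycline library. An exchange of labels was not tested. NCCIT had 157136 peaks that covered 137 Mb with a median width of 544 bp. Uninduced library 1 had 151492 peaks over 182 Mb (median 688 bp) and uninduced library 2 had 181332 over 183 Mb (median 585 bp). The median fold enrichment of a peak, which is the enrichment value that the authors' lists give for it, was 4.04, 4.37 and 4.35. How that value was computed is not stated. Peaks of at least 5 kb numbered 1327 in NCCIT, 3285 in uninduced library 1 and 2582 in uninduced library 2. The lists hold no read counts, so the depth of each library is unknown, and the intervals below are Wilson 95% intervals that cover counting error only. The cells had the RNA of pluripotent cells: in 3 RNA-seq libraries of uninduced SCi-NCCITs, POU5F1 (OCT4) was at 206 ± 38.6 TPM (SD, n = 3) and SOX2 at 348 ± 26.4 TPM, while SOX17 and TBXT had means of 0.0181 and 0.0194 TPM. HAND1, a germ layer marker, was an exception with a mean of 124 TPM. RNA of parental NCCITs was not analysed here. At the H3K9me3 level neither POU5F1 nor SOX2 had a peak within 1000 bp of its TSS in any of the 3 libraries. The same held for NANOG, DPPA4, DNMT3B, TDGF1, SALL4, PRDM14 and L1TD1. LIN28A, at a mean of 314 TPM, had a peak of 4.33 in uninduced library 1, 64 bp from its TSS. LIN28B had peaks of 3.95 and 3.93 in the uninduced libraries and none in NCCIT.

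A short ZNF10 transcript was scarce before induction. dCas9-KRAB constructs commonly take their KRAB domain from ZNF10, but the paper does not name the source of the domain used here. The short transcript (ENST00000536877, 472 nt) was far higher with doxycycline. It was at 1.39, 0.415 and 0.55 TPM in the 3 uninduced RNA libraries, from 2.85 to 5.47 estimated counts each. In the 3 doxycycline libraries it was at 1518, 1493 and 1953 TPM. The longest ZNF10 transcript, ENST00000248211, was at 1.92, 2.37 and 2.23 TPM without doxycycline and at 1.36, 1.68 and 1.68 TPM with it. The few counts on the short transcript can come from endogenous ZNF10 or from the transgene, and these were not told apart.

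Most peaks were shared between parental and engineered cells, and the parental list was the shortest in bases. Of the NCCIT peaks, 76.8% (95% interval 76.6 to 77.1) overlapped a peak of uninduced library 1 and 79.4% (79.2 to 79.6) a peak of uninduced library 2. In the other direction, 62.0% of the peaks of uninduced library 1 and 59.2% of those of library 2 overlapped an NCCIT peak. Between the uninduced libraries the shares were 76.2% and 70.2%. In bases, 77.2% and 77.3% of the NCCIT list lay in the uninduced lists, and 73.4% and 73.2% of the uninduced lists lay in each other. The Jaccard index, which falls when lists differ in length, was 0.496 for NCCIT with either uninduced library and 0.578 for the uninduced pair. Across 72175 regions of the assembled chromosomes with a peak in all 3 libraries, log2 fold enrichment was correlated between libraries. The correlation was 0.62 between NCCIT and library 1, 0.61 between NCCIT and library 2 and 0.63 between the uninduced libraries. These regions share sequence and mappability across libraries, so the correlations are descriptions only.

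Sharing depended on peak strength. Among the weakest 10% of NCCIT peaks by p-value, 56.8% overlapped a peak of uninduced library 1 and 59.98% a peak of library 2, and among the strongest 10% the shares were 99.4% and 99.6%. For uninduced peaks in NCCIT, the share went from 32.5% in the weakest 10% of library 1 to 97.5% in the strongest, and from 30.4% to 99.1% in library 2. The strongest H3K9me3 domains were therefore listed in parental and engineered cells alike, and the share without a counterpart was largest among weak peaks.

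Merged over the 3 lists, the peaks formed 200187 regions. Of these, 72494 (36.2%) had a peak in all 3 libraries, with a median width of 1853 bp, and they held 179 of 250 Mb. Regions with a peak in both uninduced libraries and none in NCCIT numbered 22829 (11.4%), with a median width of 758 bp. Regions of NCCIT alone numbered 20531 (10.3%), with a median width of 359 bp, against 27215 for uninduced library 1 alone and 39620 for uninduced library 2 alone. The regions found in NCCIT alone were thus fewer than those found in either uninduced library alone. Like the other regions missing from at least 1 library (60.2% to 66.4%), they lay mostly beside shared heterochromatin, 68.0% of them within 10000 bp of a region present in all 3, against 39.2% of the 1429331 tiles of 2000 bp on the assembled chromosomes. In the doxycycline libraries, 6.27% and 18.9% of the NCCIT-only regions had a peak, and 39.5% and 71.2% of the regions of both uninduced libraries did. Over all merged regions the shares were 40.6% and 60.6%. For regions of library 1 alone they were 23.9% and 23.7%, and for regions of library 2 alone 8.13% and 43.1%.

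Base composition separated uninduced library 1 from NCCIT and uninduced library 2, but not from doxycycline library 1. The median GC content of all peaks was 42.1% in uninduced library 1 and 42.7% in doxycycline library 1. It was 40.3% in NCCIT, 40.2% in uninduced library 2 and 40.1% in doxycycline library 2. The regions of uninduced library 1 alone had a median GC content of 46.0%, against 39.0% for the regions of library 2 alone, 38.6% for those of NCCIT alone and 39.8% for all tiles. Regions with NCCIT and library 1 but without library 2 stood at 43.5%, and those with NCCIT and library 2 but without library 1 at 37.8%. Promoters lay in 1.47% of the regions of library 1 alone, in 0.268% of those of library 2 alone and in 0.215% of those of NCCIT alone. The part of base composition in the differences between libraries was not tested.

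The widest regions of each kind were named by rule. Of the 5 widest found in NCCIT alone, 1 covered 2442 bp of an intron of DNAI3 (chr1:85479041-85481482, fold enrichment 6.36), 1 covered 1855 bp of an intron of MYO7B (chr2:128313655-128315509, fold enrichment 5.01), and 1 lay near SLC5A7 (chr2:108590099-108592145, fold enrichment 5.14). The region at chr19:35056470-35058175 (fold enrichment 6.98 in NCCIT) had no peak in the uninduced libraries, one of 10.1 in doxycycline library 1 and one of 3.23 in doxycycline library 2. The MYO7B and SLC5A7 regions also had a peak in doxycycline library 2, of 5.41 and 3.52, and none in doxycycline library 1. These 3 regions thus had a peak in at least 1 library of the engineered cells. The widest region of both uninduced libraries without NCCIT covered 6687 bp and an exon of AHNAK, which encodes a giant scaffold protein (chr11:62289547-62296233). Library 1 covered all of it at a fold enrichment of 4.83, and library 2 covered 13.7% of it at 3.76. A region of 6232 bp over an exon of ZNF273, a zinc finger gene of chromosome 7 (chr7:64328124-64334355), was likewise covered in full in library 1 at 7.48 and over 6.76% in library 2 at 3.08. The region at chr4:36898008-36902113 was covered more evenly, over 87.3% at 6.36 in library 1 and over 95.7% at 6.39 in library 2. The widths of several such regions were therefore set by uninduced library 1.

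At the 751 SVAs that the study listed as de-repressed, 15 (2.00%, 95% interval 1.21 to 3.27) had a peak in NCCITs, 225 (30.0%, 26.8 to 33.3) in uninduced library 1 and 52 (6.92%, 5.32 to 8.97) in uninduced library 2. The study chose these SVAs as lacking H3K9me3 in pluripotent cells and drew the NCCIT data on them, so the low NCCIT count is fixed in part by that choice, and no difference from NCCIT at these SVAs is read as a result. For all tiles of 2000 bp, the share with a peak was 11.6% in NCCIT, 13.6% in library 1 and 14.3% in library 2, and 9.77% and 13.8% in the doxycycline libraries. The mean of the uninduced counts was 138.5 ± 122 (SD, n = 2), so the spread between these libraries was nearly as large as their mean. An exact permutation test of 1 library against 2 gave p = 0.667 (two-sided, difference 123.5 SVAs), and since 0.33 is the smallest value that 3 libraries can give, this p says nothing about a difference. The doxycycline libraries had 368 and 289 SVAs with a peak.

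**Figure D1:**
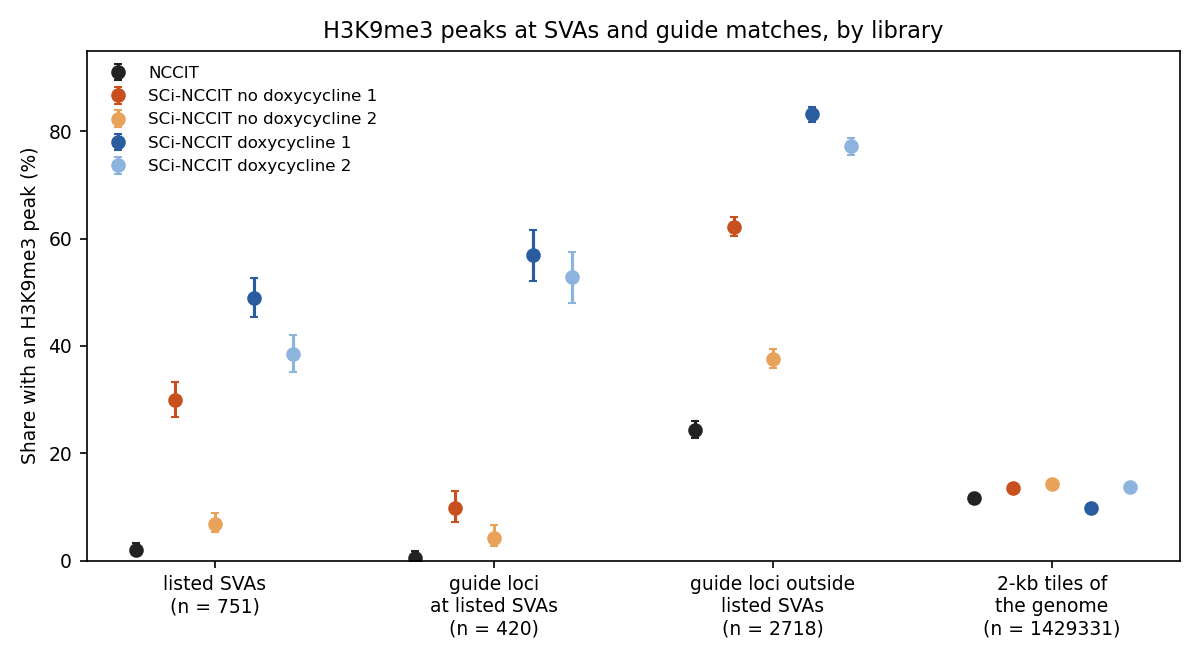
Share of SVAs, guide loci and genome tiles with an H3K9me3 peak (y axis, %) in each of 5 libraries, with Wilson 95% intervals as bars. In the first 3 sets uninduced library 1 lies between the other uninduced library and the doxycycline libraries, whereas in the 2000-bp tiles the 5 shares lie between 9.77% and 14.3%.

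By pattern, 518 of the 751 SVAs had no peak in any of the 3 libraries. The largest group with a peak was library 1 alone, with 173 SVAs. Of these, 159 also had a peak in doxycycline library 1 and 83 in doxycycline library 2. A further 39 SVAs had a peak in both uninduced libraries and none in NCCIT, of which 37 and 32 had one in the doxycycline libraries. That is 5.19% of the SVAs, in a set chosen for lacking H3K9me3 in pluripotent cells, against 2.26% of the tiles. Another 6 SVAs had a peak in all 3 libraries, 7 in NCCIT and library 1, 1 in NCCIT and library 2, 6 in library 2 alone and 1 in NCCIT alone.

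SVA length, base composition and contig went with the count of uninduced library 1. In 4 equal groups of the SVAs on assembled chromosomes, from the shortest to the longest, the share with a peak in library 1 was 10.1%, 18.2%, 50.6% and 57.9%. In library 2 it was 5.66%, 4.403%, 12.0% and 10.7%. By GC content, library 1 had 4.43% in the most AT-rich of 4 groups, then 39.2% and 53.8%, and 39.9% in the most GC-rich, where library 2 had 3.80%, NCCIT 1.27%, and the doxycycline libraries 41.1% and 9.49%. In the most GC-rich group library 1 was thus close to doxycycline library 1, the other SCi-NCCIT library whose label has no replicate number, and library 2 was closest to NCCIT. SVAs on alternate or random contigs (116) had a peak in 8 cases in library 1 and in none in NCCIT or library 2, which allows a share of up to 2.59%.

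At SVAs, the share of uninduced library 1 with and without a guide match depended on the SVAs that were counted. Over all 635 SVAs on assembled chromosomes, 40.7% (154 of 378) with a match and 24.5% (63 of 257) without one had a peak in library 1, against 10.3% and 5.06% in library 2. The SVAs without a match include many short fragments. Among SVAs of at least 200 bp, 41.1% (154 of 375) with a guide match and 41.0% (50 of 122) without one had a peak in library 1. In library 2 the shares were 10.4% (39 of 375) and 3.28% (4 of 122), with intervals of 7.70 to 13.9 and 1.28 to 8.13 that overlap slightly, and in NCCIT 2.93% and 1.64%. In the doxycycline libraries they were 73.6% against 40.2% and 65.6% against 4.92%. The SVAs of at least 200 bp without a match were also richer in GC, with a median of 69.4% against 56.6%. Over all SVAs without a match, the doxycycline libraries had 32.7% and 15.6%. By subfamily, library 1 had a peak in 35.1% of SVA_E and 32.9% of SVA_F, in 31.0% of SVA_D and 28.9% of SVA_B, and in 19.6% of SVA_C and 15.5% of SVA_A, while library 2 was highest in SVA_B with 14.4%.

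Peaks of the uninduced libraries at SVAs lay beside the guide match rather than on it. Among SVAs with an sgRNA1 match and a peak, the peak covered the match in 0 of 11 SVAs in NCCIT, which allows up to 27.3%, in 11 of 148 (7.43%, 4.201 to 12.8) in library 1 and in 2 of 37 (5.41%, 1.495 to 17.7) in library 2. In the doxycycline libraries it covered 63.4% (168 of 265) and 73.4% (174 of 237). The median summit lay 564 bp upstream of the match, counted on the strand of the guide, in library 1 and 464 bp upstream in library 2. It was also upstream in NCCIT (304 bp) and in doxycycline library 1 (427.5 bp), and 112.5 bp downstream in doxycycline library 2. When an SVA had a peak, the median share of its length under a peak was 34.1% in NCCIT, 42.6% in library 1 and 22.04% in library 2, against 82.4% and 100% in the doxycycline libraries. SVAs with at least 50% of their length covered numbered 2, 87 and 12.

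Named SVAs show the range. SVA_B_r375, a fragment of 32 bp in overlapping introns of SLIRP and SNW1 (chr14:78213234-78213265), had the highest mean fold enrichment of those with both uninduced libraries and no NCCIT peak, at 14.0 in library 1 and 4.04 in library 2. It had no guide match and no peak in either doxycycline library. SVA_F_r623, in an intron of ABCC2, a canalicular export pump gene (chr10:101599010-101599876), had 13.0 and 4.04, again without a guide match. SVA_D_r148 (chr2:25945508-25947023) had 7.21 and 4.27 from peaks that did not reach the match, and 19.2 and 9.83 with doxycycline, where the peaks covered it. SVA_E_r223 near RNF24 (chr20:4012514-4014746) had 5.73 and 9.56, from a peak inside it in library 1 and from a peak in library 2 that ended 4 bp inside the SVA, and it carried YY1 and OCT4 peaks in all 3 uninduced libraries of those factors. SVA_D_r153 (chr2:32425416-32425908) had no peak in NCCIT or in either uninduced library, and 8.62 and 8.93 with doxycycline.

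The SVAs with the highest peaks in NCCIT had peaks in the engineered cells as well. SVA_D_r604, a fragment of 22 bp in an intron of BMT2 (chr7:112563558-112563579), had the highest fold enrichment in NCCIT, 6.98, with 19.1 in library 1 and 8.38 in library 2. SVA_F_r229 in an intron of CFAP92 (chr3:128674050-128675037) had 5.64, 5.78 and 5.41, and its peak reached the sgRNA1 match in both uninduced libraries and in no other. That contrast rests on a few bases, since the peak began at position 128674861 in uninduced library 2 and at 128674864 in doxycycline library 1. SVA_A_r77 (chr6:23060473-23060894) had 4.41 in NCCIT, 10.8 in library 1 and no peak in library 2. SVA_C_r180 in an intron of LINC03036 (chr10:120554649-120555260) was the only SVA with a peak in NCCIT (4.41) and in neither uninduced library, and both doxycycline libraries had one.

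Guide matches outside the 751 SVAs gave a set that was not chosen for lacking H3K9me3. It was not free of selection, since the SVAs left in it are those that the paper found to carry H3K9me3 in iPSCs. Matches that allowed up to 3 mismatches beside an NGG PAM formed 3138 loci, of which 420 lay at listed SVAs and 2718 elsewhere. At the 2718 loci, 24.4% (22.9 to 26.1) had a peak in NCCIT, 62.3% (60.4 to 64.1) in uninduced library 1 and 37.6% (35.8 to 39.5) in uninduced library 2, with 83.2% and 77.2% in the doxycycline libraries. Both uninduced shares were above the NCCIT share, and library 1 was the farther. The tile shares of the same 3 libraries were within 3 percentage points of each other. At the 420 loci of listed SVAs the shares were 0.476%, 9.76% and 4.29%, and 56.9% and 52.9% with doxycycline. The paper states that the guides also target the LTR5Hs family of transposable elements, and the loci were not split by repeat family here. Loci of a repeat family share sequence, and a locus is not a replicate.

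The shares were lowest at loci with 3 mismatches in all 3 libraries. For a best match with 0, 1, 2 and 3 mismatches outside the listed SVAs, NCCIT had peaks at 27.4%, 19.7%, 24.3% and 3.25% of loci. Library 1 had 68.2%, 58.1%, 43.0% and 9.76%, and library 2 had 42.5%, 30.6%, 32.7% and 3.25%. The parental cells have no guide, so a difference between exact and distant matches was present without one. The loci with 3 mismatches, 123 in all, were low in the doxycycline libraries too, at 2.44% and 4.07%.

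Loci with no NCCIT peak on the match were marked more often in library 1 than in library 2. Many of them lay next to an NCCIT peak: of the 1866 with an sgRNA1 match, 36.5% were covered in NCCIT 500 bp upstream of the match, and with a peak within 500 bp counted, the NCCIT share of all loci was 57.3% in place of 24.4%. Of the 2054 loci outside the listed SVAs with no NCCIT peak, 1035 (50.4%, 48.2 to 52.5) had a peak in library 1 and 454 (22.1%, 20.4 to 23.9) in library 2. Both had one at 417 loci, or 15.3% of the 2718, against 2.26% of the tiles, and 401 and 391 of these had a peak in the doxycycline libraries. Without library 2 the count of loci with an engineered peak and no NCCIT peak was 1035, and without library 1 it was 454. Of the 664 loci with an NCCIT peak, 98.9% had one in library 1 and 85.7% in library 2. Loci with a peak in NCCIT alone numbered 3.

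The 5 loci with the highest mean fold enrichment among these 417 all lay in introns. A locus in an intron of GTDC1 had no peak in NCCIT, 22.3 in library 1 and 16.1 in library 2. A locus in an intron of ITGB3BP had 26.7 in library 1, from a peak of more than 6 kb, and 8.64 in library 2. A locus in an intron of ADGRV1, the gene of an adhesion receptor of the inner ear and retina, had 23.4 and 10.6. An intron of the lncRNA ENSG00000284999 had 26.7 and 7.14, and an intron of SPATS2 had 24.1 and 9.11. Library 1 was higher than library 2 at all 5, which were chosen by their mean.

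Outside the listed SVAs, coverage by peaks was highest on the same side of the guide match in the 3 libraries. Over 2490 sgRNA1 matches outside the listed SVAs, the share covered by a peak was highest 800 bp upstream of the match in NCCIT (52.8%), 550 bp upstream in library 1 (81.0%) and 950 bp upstream in library 2 (57.4%). At the match itself it was 20.4%, 57.4% and 34.1%, and 5 kb away it was on average 10.3%, 13.6% and 12.9%. The maximum of library 1 was thus the closest to the match, and both uninduced libraries covered the match more often than NCCIT. In the doxycycline libraries 81.2% and 74.8% of the matches were covered.

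**Figure D2:**
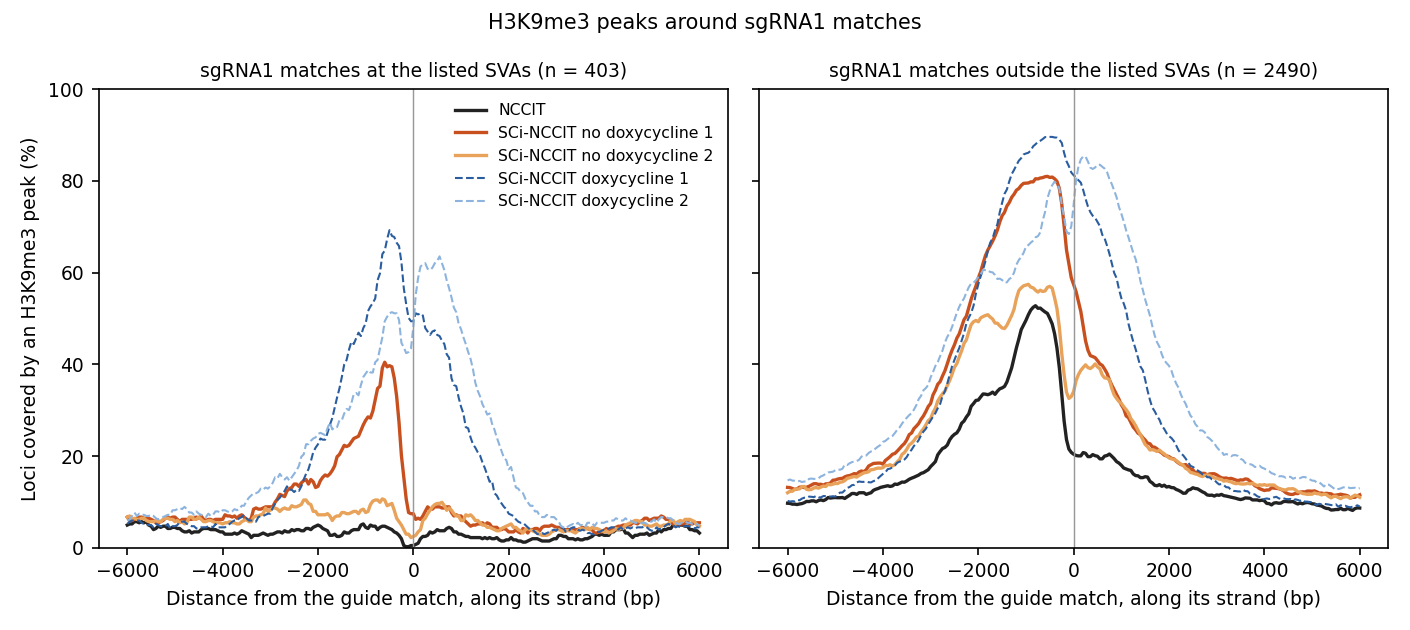
Share of sgRNA1 loci covered by an H3K9me3 peak (y axis, %) by distance from the match along its strand (x axis, bp), for matches at the listed SVAs (left, 403 loci) and outside them (right, 2490 loci), in each of 5 libraries. On the right the maxima of NCCIT, uninduced library 1 and uninduced library 2 lie upstream of the match at 52.8%, 81.0% and 57.4%.

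Where all 3 libraries had a peak, fold enrichment at guide matches was higher in uninduced library 1 than in NCCIT. With all such regions pooled, uninduced library 2 showed no such excess over regions without a match. Over the 72175 shared regions, the median log2 ratio to NCCIT was 0.29 for library 1 and 0.32 for library 2, and 9.43% and 5.95% of the regions were at least 2-fold higher. Between the uninduced libraries the median log2 ratio was -0.03, and 3.71% were at least 2-fold higher in library 1. In the 1558 shared regions with a guide match, the median fold enrichment was 5.65 in NCCIT, 14.7 in library 1 and 6.83 in library 2. The log2 ratio to NCCIT had a median of 1.34 in library 1, with 1201 regions (77.1%) at least 2-fold higher and 0 at least 2-fold lower. In library 2 the median was 0.29, with 69 regions (4.43%) at least 2-fold higher, which is below the 5.98% of the 70617 regions without a match. Without a guide match, the median log2 ratio of library 1 to NCCIT was 0.28, and 7.94% of the regions were at least 2-fold higher.

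Library 1 was close to the first doxycycline library at these regions. The median log2 ratio to NCCIT over regions with a guide match was 1.39 in doxycycline library 1 and 0.52 in doxycycline library 2. By the best match in the region, the median log2 ratio of library 1 to NCCIT was 1.33 with 0 mismatches (1114 regions), 1.40 with 1 (368), 1.13 with 2 (52) and 0.40 with 3 (24). Regions with sgRNA1 matches alone had a median of 1.00 (103), those with sgRNA2 matches alone 1.34 (187), and those with both 1.34 (1268). Within each of 4 equal groups by NCCIT fold enrichment, regions with a match exceeded those without one in library 1, with medians of 1.504 against 0.35 in the lowest group and 1.21 against 0.34 in the highest. In library 2 the medians from the lowest group up were 0.59 against 0.44, 0.42 against 0.30 and 0.28 against 0.27. In the highest group they were 0.16 against 0.27, so the order was reversed there. Whether dCas9-KRAB was present without doxycycline in these ChIP-seq samples was not tested, and clone and library cannot be told apart.

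**Figure D3:**
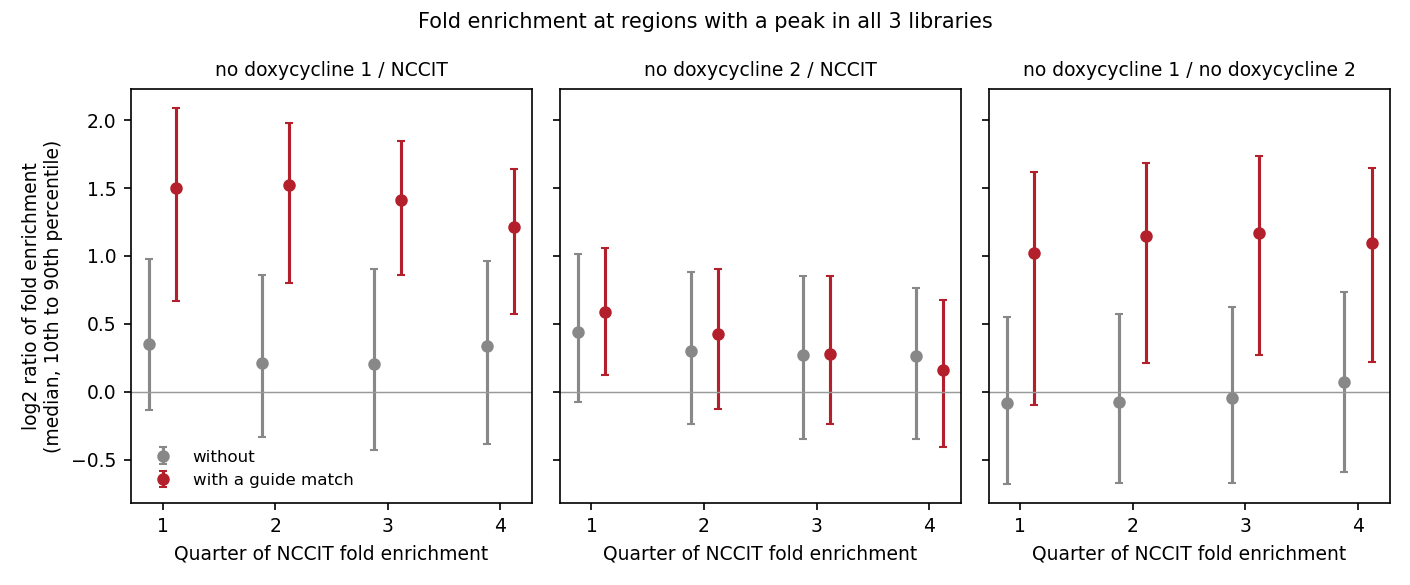
Log2 ratio of fold enrichment (y axis) for 3 pairs of libraries by NCCIT fold enrichment in 4 equal groups (x axis), in regions with a peak in all 3 libraries, with and without a guide match. Points are medians and bars run from the 10th to the 90th percentile. The points with a match lie far from those without one in the pairs with uninduced library 1 (1.21 to 1.52 over NCCIT). In the pair of library 2 with NCCIT (0.16 to 0.59) they lie close together.

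At promoters of 20136 protein-coding genes, a peak within 1000 bp of the TSS was present at 551 in NCCIT, at 1100 in library 1 and at 775 in library 2. All 3 libraries had one at 409 promoters (2.03%), both uninduced libraries and not NCCIT at 228 (1.13%), and NCCIT alone at 45 (0.223%). In RNA of uninduced SCi-NCCITs, the median was 5.88 TPM for genes with no promoter peak, 0.712 TPM for genes with one in all 3 libraries, 2.04 TPM for genes of both uninduced libraries alone and 0.147 TPM for the genes of NCCIT alone. Of the genes marked in NCCIT alone, 28.9% were at 1 TPM or more, among them ZNF638 with a mean of 94.5 TPM. The shares were 65.6% for genes with no promoter peak, 58.5% for both uninduced libraries alone and 47.5% for all 3 libraries. At ZNF638 the NCCIT peak lay 879 bp from the TSS, and the nearest peaks of the uninduced libraries were 4887 and 1233 bp away.

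Zinc finger genes of chromosome 19, many of which encode the KRAB proteins that direct H3K9me3 to retrotransposons, had promoter peaks more often than protein-coding genes as a whole in all 3 libraries. Of 249 such genes, 42 (16.9%) had a peak in NCCIT, 90 (36.1%) in library 1 and 68 (27.3%) in library 2. All 3 had one at 35, both uninduced libraries and not NCCIT at 27 (10.8%, against 1.13% of all promoters), and NCCIT alone at 1. The order of the libraries was that of all promoters, of which 2.74%, 5.46% and 3.85% had a peak. Of 266 ZNF genes elsewhere, 21, 37 and 28 had a peak, with 16 in all 3, 9 in both uninduced libraries alone and 2 in NCCIT alone. Chromosome 19 also had the highest coverage by peaks of any chromosome, with 11.1% of its known bases in NCCIT, 15.9% in library 1 and 12.0% in library 2.

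**Figure D4:**
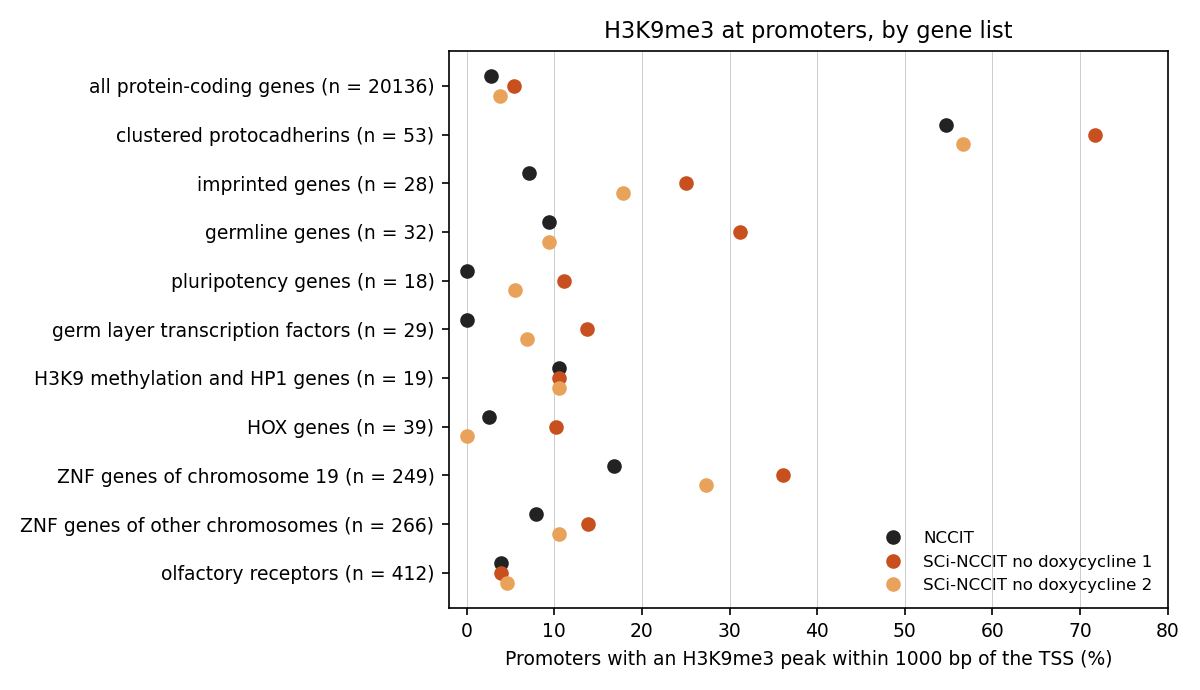
Share of promoters with an H3K9me3 peak within 1000 bp of the TSS (x axis, %) in NCCIT and the 2 uninduced libraries, for all protein-coding genes and 10 gene lists (y axis). ZNF genes of chromosome 19 lie at 16.9%, 36.1% and 27.3%, and clustered protocadherins at 54.7%, 71.7% and 56.6%.

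The distance to the TSS bears on these counts. ZNF132 (TSS chr19:58951520) had no peak within 1000 bp in NCCIT, one of 18.4 in library 1 and one of 14.0 in library 2, and the nearest NCCIT peak was 1710 bp away, against 625 and 991 bp. ZNF134 (TSS chr19:58125601) had 17.2 and 14.6 at 803 and 914 bp, with the nearest NCCIT peak at 1299 bp. ZNF880 (TSS chr19:52873170) had 12.1 and 15.5 at 0 and 24 bp, and NCCIT had a peak 1018 bp away. Off chromosome 19, the nearest NCCIT peak was 1200 bp from ZNF594, 1022 bp from ZNF512B and 1008 bp from ZNF32, just outside the window. These 6 genes therefore had an H3K9me3 peak within 1710 bp of the TSS in parental cells too. The side of the TSS and the strength of those NCCIT peaks were not compared. With a window of 250 bp, 11 ZNF promoters of chromosome 19 in place of 27, and 116 of all promoters in place of 228, had peaks in both uninduced libraries and not in NCCIT. In uninduced SCi-NCCITs, ZNF134 was at 9.73 TPM, ZNF132 at 3.08 TPM and ZNF32 at 43.6 TPM, so the peaks stood beside expressed genes. ZNF324B (TSS chr19:58962978), the 1 gene of the chromosome 19 list with NCCIT alone, had a peak of 6.96 at 893 bp in NCCIT, and the uninduced libraries had theirs 1054 and 1198 bp away.

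The promoters of ZNF134 and ZNF324B are printed because the peaks of the 3 libraries stopped short of them: no peak reached the 300 bases from 250 before to 50 after the start in any of the 3. CG dinucleotides are in capitals. ZNF134 (chr19:58125351-58125650, plus strand, hg19) held 21 and ZNF324B (chr19:58962728-58963027, plus strand) held 28, against a median of 18 over all 20136 promoters, 17 over the 27 ZNF promoters of both uninduced libraries alone and 13 over the 35 of all 3 libraries. Over all genes the median was 9 for promoters with a peak in all 3 libraries, 14.5 for both uninduced libraries alone and 5 for NCCIT alone.
ZNF134 promoter: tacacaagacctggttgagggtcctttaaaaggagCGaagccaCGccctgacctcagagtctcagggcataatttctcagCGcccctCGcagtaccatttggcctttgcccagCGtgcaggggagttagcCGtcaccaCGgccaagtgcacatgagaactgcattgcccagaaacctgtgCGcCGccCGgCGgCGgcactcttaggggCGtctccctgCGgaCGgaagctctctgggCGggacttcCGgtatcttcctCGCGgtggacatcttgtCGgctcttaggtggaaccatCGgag
ZNF324B promoter: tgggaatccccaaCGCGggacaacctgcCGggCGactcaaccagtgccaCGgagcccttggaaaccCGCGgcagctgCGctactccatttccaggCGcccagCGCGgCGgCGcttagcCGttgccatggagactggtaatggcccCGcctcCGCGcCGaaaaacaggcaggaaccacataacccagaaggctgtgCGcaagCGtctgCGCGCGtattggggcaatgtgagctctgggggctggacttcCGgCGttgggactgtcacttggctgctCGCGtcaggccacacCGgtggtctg

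Promoters with a peak in all 3 libraries were named for their high fold enrichment. ZNF577 had fold enrichments of 8.81 in NCCIT, 13.7 in library 1 and 15.2 in library 2, all over the TSS. ZNF614 had 7.96, 13.1 and 16.1, with the NCCIT peak 890 bp from the TSS and the others on it. ZNF792 had 8.81, 17.2 and 10.2. ZNF454 on chromosome 5 had 6.66 and 14.4 in NCCIT and library 1 and 6.64 in library 2, so there library 2 was level with NCCIT. Across the 1149 shared regions with a ZNF gene, the median log2 ratio to NCCIT was 0.40 for library 1 and 0.34 for library 2, and 8.36% and 4.61% were at least 2-fold higher, close to the 9.43% and 5.95% of all shared regions.

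Clustered protocadherins, adhesion molecules whose stochastic promoter choice gives neurons their identity, were the most marked list in every library. Of 53 genes, 29 had a promoter peak in NCCIT, 38 in library 1 and 30 in library 2, and 25 had one in all 3 (47.2%, against 2.03% of all promoters). PCDHGB5 had 6.58, 15.5 and 6.45, PCDHGA12 had 8.08, 13.4 and 5.93, and PCDHGA8 had 4.42, 11.9 and 7.69, with the peak on the TSS in all 3 libraries. Library 1 was the highest at each, and library 2 was below NCCIT at PCDHGB5 and PCDHGA12. Both uninduced libraries alone marked 4, among them PCDHGB1 (8.89 and 4.74, nearest NCCIT peak 2177 bp away), and NCCIT alone marked PCDHB8 (3.62).

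**Figure D5:**
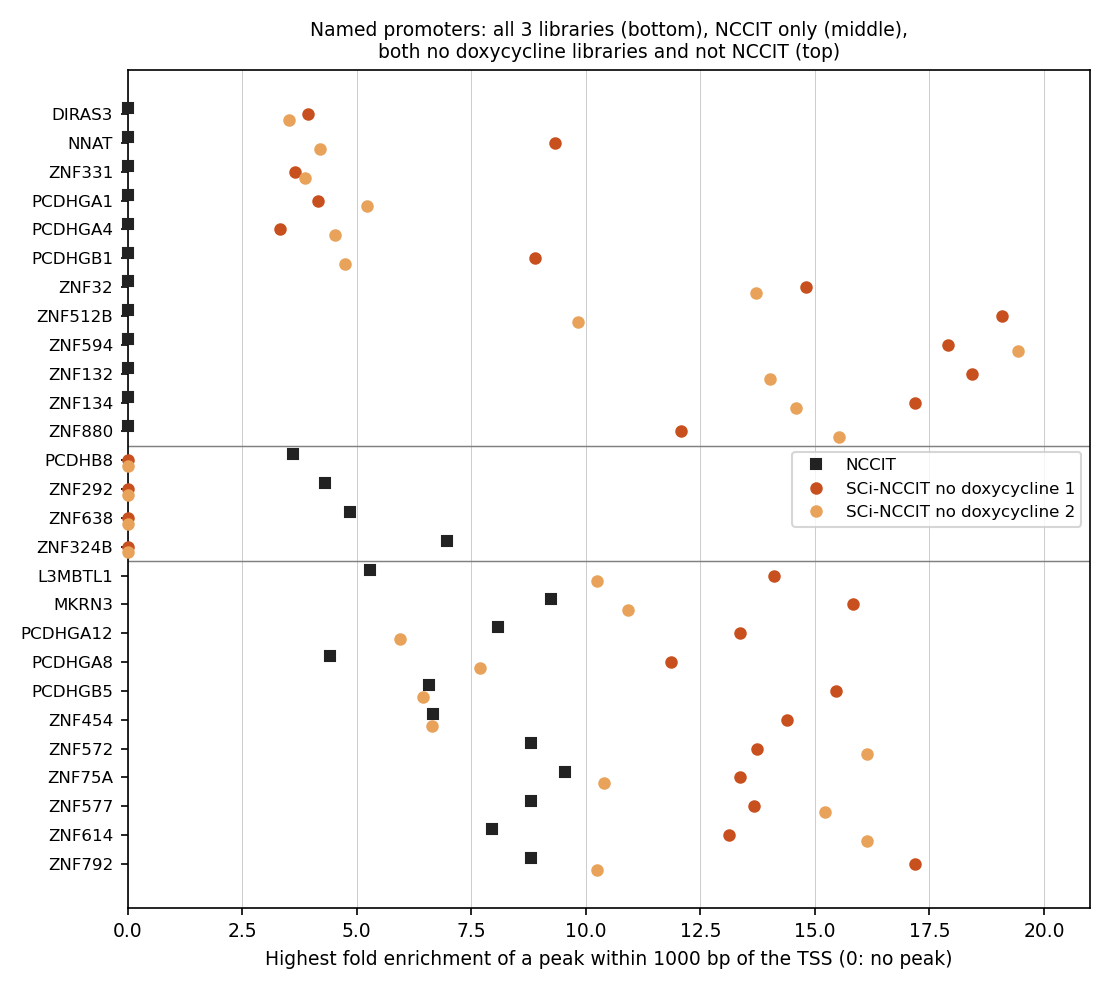
Highest fold enrichment of a peak within 1000 bp of the TSS (x axis, 0 for no peak) in NCCIT and the 2 uninduced libraries, for the named zinc finger, protocadherin and imprinted genes (y axis), grouped by pattern. In the group with peaks in all 3 libraries uninduced library 1 lies above NCCIT at every gene, from 11.9 to 17.2.

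The other lists were small, and their counts stand against 2.74%, 5.46% and 3.85% of all promoters in NCCIT, library 1 and library 2. Of 28 imprinted genes, 2 had a peak in NCCIT, 7 (25%) in library 1 and 5 in library 2. MKRN3 and L3MBTL1 had one in all 3 libraries (9.25, 15.8 and 10.9 for MKRN3), and NNAT, ZNF331 and DIRAS3 in both uninduced libraries alone. NNAT, an imprinted gene for a membrane proteolipid, was farthest from any NCCIT peak (28625 bp), with 9.32 in library 1 and 4.201 in library 2. Of 32 germline genes, 3, 10 (31.3%) and 3 had a peak, HORMAD1 and DAZL in all 3 libraries, DPPA5 in both uninduced libraries alone (5.15 and 4.69, nearest NCCIT peak 17374 bp away) and STAG3 in NCCIT alone. Of 18 pluripotency genes, 0, 2 and 1 had a peak, and LIN28B, an RNA-binding inhibitor of let-7, was the one in both (3.95 and 3.93) at 28.4 ± 3.72 TPM. Of 29 germ layer transcription factors 0, 4 and 2 had a peak, with MYOD1 and FOXA2 in both uninduced libraries. Of 39 HOX genes 1, 4 and 0 had one. Of 19 genes for H3K9 methylation and HP1, 2 had a peak in each library, TASOR of the HUSH complex and ATF7IP, the SETDB1 partner. Of 412 olfactory receptors 16, 16 and 19 had one, with 10 in all 3, 5 in NCCIT alone and 2 in both uninduced libraries alone. In these lists the peaks of library 1 exceeded those of library 2 in number for imprinted, germline, pluripotency, germ layer and HOX genes, and not for olfactory receptors or the H3K9 methylation list.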

How the data were processed

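H3K9me3 ChIP-seq of 1 NCCIT and 2 uninduced SCi-NCCIT libraries was analysed, and 2 doxycycline libraries served as reference. Conditions came from the labels. Libraries without a replicate number were called replicate 1, separate cultures are not stated, and the spread between libraries may be technical. The authors ran TrimGalore! and BWA MEM against hg19, discarded duplicates and reads with a mapping quality of 10 or less, and listed the peaks of each sample at 5% FDR. The caller is not given in the sources used here. The deposited peak lists hold fold enrichment (a ratio) and p- and q-values as −log10. For RNA, the authors deposited kallisto estimated counts and TPM per transcript. TPM were summed per gene of GENCODE v44lift37, and no count test was run.

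An overlap of 1 bp with a peak was enough to count a feature. SVAs were the 751 de-repressed intervals listed by the authors. Guide matches were searched on both strands of hg19 (NGG PAM, up to 3 mismatches) and joined into loci under 2000 bp. A region that a library marked more was called at 2-fold. Regions, SVAs, loci and genes were named by rank in fold enrichment or width within each pattern, with SVA_D_r153 and SVA_E_r223 from the paper's drawings. The comparison, gene lists and rules were chosen with earlier results of these data known. Named items on chromosome 8 and the sequences of the guide matches are not reported here. A HiChIP table (16 columns, 6 samples) was not used, since its columns could not be assigned. Tools were Python 3.11.15, numpy 2.4.6, pandas 2.3.3, scipy 1.17.1, bedtools 2.31.1 and matplotlib 3.10.9, and the overlap code was checked against bedtools on simulated intervals. Alternatives were stricter, equal-sized or differently joined peak sets, other overlaps and windows, other folds, and leaving out each uninduced library.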

Additional observations from a re-analysis of the deposited data

How the results depend on the processing

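No paired analysis was possible because NCCIT has 1 library and its label carries no replicate number. Of 92 alternative values for 20 results, 48 moved by less than their limit and 44 moved further. The limit was 1.5 times for a count and the 95% interval for a share of guide loci or shared regions. For shares of overlapping peaks it was the SD of the NCCIT shares with the 2 uninduced libraries. With a −log10 q of at least 5, SVAs with a peak numbered 4 in NCCIT and 27 in library 2, with 19 in both uninduced libraries alone, and guide loci with a peak outside the SVAs were 19.02% in NCCIT and 33.1% in library 2. Shared peaks were then 85.7% for NCCIT and 78.02% for the uninduced pair, NCCIT-only regions 4751 and NCCIT-only promoters 29. With 50% of the SVA covered, 2, 87 and 12 SVAs remained, 4 of them in both uninduced libraries alone, and with 50% of the peak covered the shared shares were 68.6% and 64.7%. With SVAs extended by 500 bp, NCCIT had 41, library 2 had 110 and both uninduced libraries alone had 66. A peak within 500 bp of the guide locus was present at 57.3%, 81.1% and 67.3%. With 151492 peaks in each list, 71.1% of library 1 was shared with library 2. Merging within 1000 bp gave 8061 NCCIT-only regions and 14206 of both uninduced libraries alone. A 1.5-fold limit raised the shares above NCCIT to 28.6% (library 1) and 27.5% (library 2) of all shared regions, and to 92.0% and 25.2% of those with a guide match. After division by the library median they were 3.99%, 1.10%, 56.5% and 0.449%. A 250-bp promoter window gave 116 promoters of both uninduced libraries alone, 11 of NCCIT alone and 11 of the chromosome 19 ZNF list.

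Leaving out 1 uninduced library, the counts with the remaining library and without NCCIT ran from 45 to 212 SVAs, 454 to 1035 guide loci, 57470 to 73892 regions, 335 to 625 promoters and 33 to 49 chromosome 19 ZNF promoters, with library 1 at the upper end except for regions. NCCIT peaks shared ran from 76.8% to 79.4% and NCCIT-only regions from 32332 to 36353. Read depth is not in the peak lists and limits every count of absent peaks. With 1 NCCIT library no spread of parental cells could be had.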

Other observations

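The 2 uninduced lists were not each other's closest list in both directions. Uninduced library 2 had its highest Jaccard index with doxycycline library 2 (0.618), above that with uninduced library 1 (0.578). Uninduced library 1 had 0.513 with doxycycline library 1, whose list was the shortest (123014 peaks), and 0.551 with doxycycline library 2. NCCIT had 0.443 and 0.478 with the doxycycline libraries.

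YY1 and OCT4 peaks of uninduced SCi-NCCITs were counted at the same SVAs. Of the 173 SVAs with an H3K9me3 peak in uninduced library 1 alone, 11.6% and 9.83% had a YY1 peak in the 2 uninduced YY1 libraries, and of the 518 SVAs with no H3K9me3 peak in any of the 3 libraries 11.6% and 11.004% had one. OCT4 peaks were at 2.89% of the 173 and 8.69% of the 518, in 1 OCT4 library. Of the 39 SVAs with a peak in both uninduced libraries and not in NCCIT, 23.1% and 17.9% had a YY1 peak.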
